A study of Mus musculus with 2 samples.

Results

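Proteasome genes were examined in the leukemic stem cells (LSCs) of mice with a BCR-ABL-driven disease that models chronic myeloid leukemia (CML). The genes were chosen by name alone, as every gene symbol that begins with Psm, a letter from a to g and a digit. Of the 23284 symbols listed, 49 met this rule. They comprise the core particle (Psma and Psmb genes), the base and lid of the regulatory particle (Psmc and Psmd genes), the activators (Psme genes), the inhibitor Psmf1 and the assembly chaperones (Psmg genes). Psmc3ip met the rule by its symbol but encodes a recombination protein and no part of the proteasome.

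RNA-seq was available for 2 libraries, 1 of WT and 1 of STAP-1 KO cells, and the donors of both had a C57BL/6J background. In both, donor LSK cells received BCR-ABL and green fluorescent protein (GFP) from a retrovirus and were given to C57BL/6SJL recipients after lethal irradiation, along with supporting bone marrow cells of the recipient strain. At day 11 after the first transplantation GFP+ CD45.2+ LSK cells were sorted, that is donor-derived cells negative for lineage markers and positive for Sca-1 and c-Kit. STAP-1 is a signal-transducing adapter protein, and the study asked how gene expression in LSCs differs without it. With 1 library per genotype no difference has a replicate check, no p-value can be given, and the genotype cannot be told apart from differences between individual mice, sorts or preparations. Whether a library holds cells of 1 or of several mice is not given in the sources used here.

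The proteasome is the main machine for the breakdown of proteins tagged with ubiquitin. Its core is a barrel of stacked alpha and beta rings, in which 3 kinds of beta subunits cut the substrate, and the regulatory particle caps the barrel, where the lid removes ubiquitin and the ATPases of the base unfold the substrate and thread it inside. Under interferon, and constitutively in many blood cells, the cutting subunits Psmb5, Psmb6 and Psmb7 are replaced by Psmb8, Psmb9 and Psmb10. The resulting immunoproteasome is known for producing peptides for MHC class I. Inhibitors of the catalytic subunits are in clinical use against blood cancers.

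Expression is given in FPKM, a read density that is scaled by transcript length and by the number of mapped reads, so that levels of different genes may be set side by side. The files give no read counts, but low FPKM values fall on steps, from which an effective depth of 7490000 reads was estimated for WT and of 10490000 reads for STAP-1 KO. The targeted gene Stap1 had 62.0 FPKM in WT cells and 0.309 FPKM in STAP-1 KO cells. Of the genes of the sorting antigens, Kit stood at 468 FPKM in WT cells and at 30.1 FPKM in STAP-1 KO, and Ly6a, the gene of Sca-1, at 285 and 106 FPKM. Both were lower in STAP-1 KO cells although the cells of both libraries had been sorted for these antigens. The 6 mast cell and basophil markers summed to 49181 FPKM in WT cells and 4669 FPKM in STAP-1 KO cells, and all 6 were lower. The 4 neutrophil primary granule markers summed to 522 and 4163 FPKM, and all 4 were higher. The 4 B cell markers summed to 0.505 and 0.222 FPKM, and Pax5 was listed at 0 FPKM in both libraries. The other lists summed to 467 and 801 FPKM for 4 T and NK cell markers, nearly all of it Nkg7, to 1137 and 859 FPKM for 4 erythroid markers, to 184 and 106 FPKM for 3 megakaryocyte markers, to 129.8 and 36.6 FPKM for 5 macrophage markers, and to 11.1 and 7.08 FPKM for 4 dendritic cell markers. Lower sums do not hold for every marker in them. The megakaryocyte markers Pf4 (57.9 and 71.2 FPKM) and Gp1bb (2.28 and 2.45 FPKM) were higher in STAP-1 KO cells. So were the macrophage marker Csf1r (1.56 and 5.31 FPKM), the erythroid marker Klf1 (103 and 108 FPKM) and the B cell marker Cd79a (0 and 0.171 FPKM). In the T and NK cell list, which had a higher sum, Cd8a (0.369 and 0.132 FPKM) was lower. The mast cell and neutrophil markers and the sorting antigens thus differed between the same 2 libraries as the proteasome genes, and their part in the values below was not tested. In such bulk libraries fewer cells of a type and less RNA per cell cannot be told apart.

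Proteasome genes were higher in STAP-1 KO cells with few exceptions. Of the 49 genes, 48 had at least 0.1 FPKM in both libraries and 1, Psmb11, was listed at 0 in both. Of the 48 genes, 47 were higher in STAP-1 KO cells and 1 was lower, whereas 47.9% of all 12507 genes above that floor were higher. The excess was modest in size. A ratio of at least 1.5 was reached by 33 of the 48 genes, against 25.6% of all genes above the floor and 28.5% of the 6726 of them that averaged at least 10 FPKM, a level that all 48 proteasome genes exceeded. At the 2-fold cut-off of the study 9 genes were higher, against 12.3% of all genes above the floor and 11% of those that averaged at least 10 FPKM. Only Psme4 was at least 2-fold lower, against 22.9% of all genes. The median log2 ratio, log2((STAP-1 KO + 0.1)/(WT + 0.1)), was 0.76 over the 48 genes and -0.04 over the 10974 genes whose mean reached 1 FPKM. Together the 49 genes made up 1.04% of all FPKM in WT cells and 1.87% in STAP-1 KO cells. With the mast cell and basophil markers left out of the total, the shares were 1.12% and 1.88%.

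**Figure D1:**
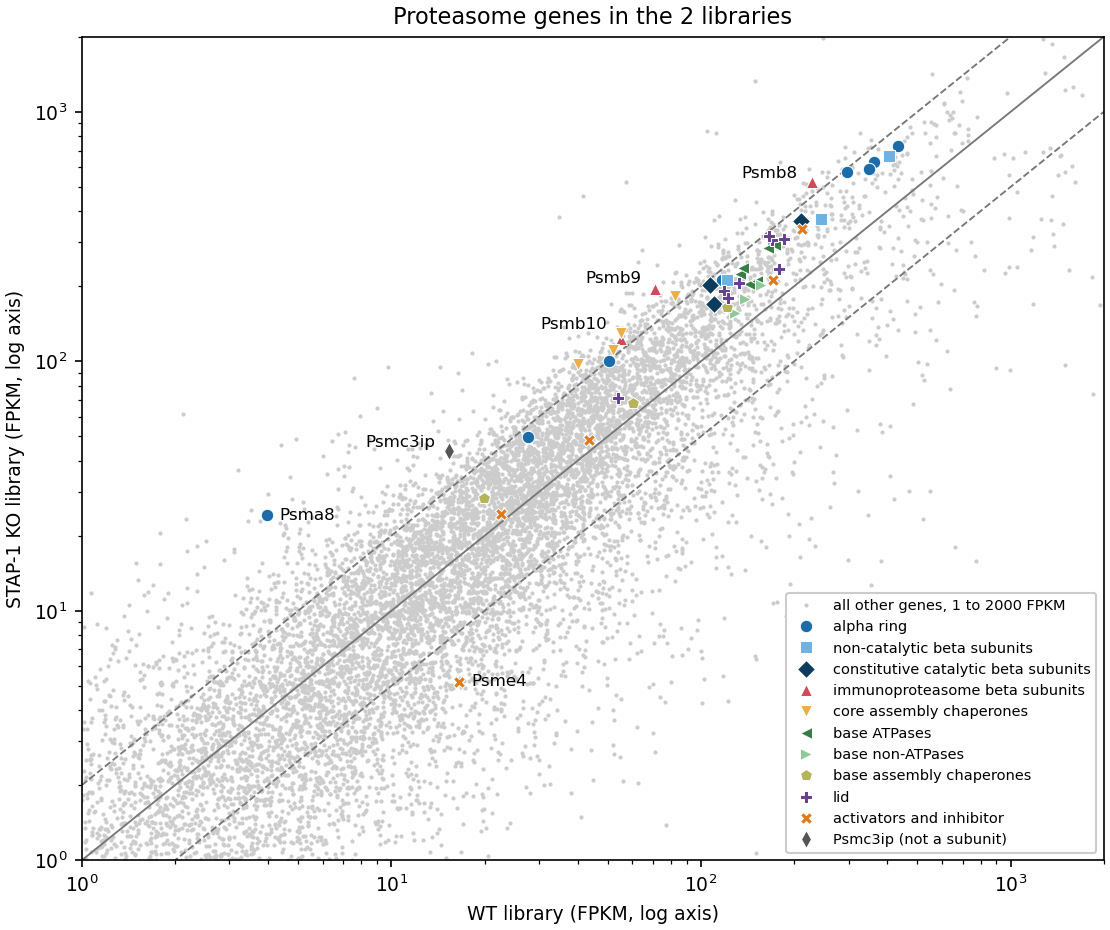
Level of each proteasome gene in the WT library (x axis, FPKM, log axis) and in the STAP-1 KO library (y axis, FPKM, log axis), by part of the proteasome, with other genes in grey. The solid line marks equal levels and the dashed lines 2-fold differences. Nearly all proteasome genes lie above the solid line and most lie below the upper dashed line, with Psma8 far above and Psme4 below.

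The constitutive subunits of the core, base and lid had similar ratios. These are 31 genes, the 7 standard alpha subunits, 7 beta subunits, 9 base subunits and 8 lid subunits. Their levels ran from 27.7 to 432 FPKM in WT cells (median 152 FPKM) and from 49.7 to 731 FPKM in STAP-1 KO cells (median 225 FPKM), with Psma3 lowest and Psma7 highest in both. The rank order of the 31 levels was much the same in both libraries (Spearman's rho 0.91 across genes, which share the 2 libraries and are no replicates). All 31 were higher in STAP-1 KO cells and none reached 2-fold. The quartiles of their log2 ratios were 0.58 and 0.81, an interquartile range of 0.23, while the range was 1.24 over all genes whose mean reached 10 FPKM.

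The alpha ring forms the gate of the barrel. Psma7 had 432 FPKM in WT cells and 731 FPKM in STAP-1 KO cells, Psma1 had 362 and 630.2 FPKM, Psma2 had 349.6 and 591 FPKM, and Psma6 had 296 and 574 FPKM. These 4 alpha genes were the most abundant of the ring. Psma4 had 117 and 213 FPKM, Psma5 had 50.6 and 100.5 FPKM, and Psma3 had 27.7 and 49.7 FPKM. The log2 ratios of the 7 genes ran from 0.76 for Psma2 to 0.99 for Psma5, although their levels in WT cells differed more than 10-fold between Psma7 and Psma3. The levels of some of these genes are uncertain, since their reads may be counted elsewhere. Of the words of 31 bases in the Psma5 transcript 66.5% also occur in transcripts of other genes, mostly processed pseudogenes, 46.4% of those of Psma4 and 27.9% of those of Psma3 do, and none of those of Psma7 and Psma1.

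Psma8, a testis-specific counterpart of Psma7 that is known from spermatogenesis, stood apart from the ring. It had 3.95 FPKM in WT cells and 24.1 FPKM in STAP-1 KO cells, a ratio of 6.10 and the largest of all 49 genes. About 43.9 and 375 reads stand behind these values, which gives a 95% counting interval of the ratio from 4.46 to 8.54. Such intervals (exact binomial, from the estimated reads) cover counting error only and not the spread between mice or preparations. Psma8 shares no word of 31 bases with another annotated transcript, Psma7 included. Its level was low beside that of Psma7, at 0.915% of it in WT cells and 3.30% in STAP-1 KO cells.

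The beta subunits that do not cut, Psmb1 to Psmb4, complete the beta rings. Psmb2 had 406 FPKM in WT cells and 663 FPKM in STAP-1 KO cells, Psmb1 had 245 and 372 FPKM, Psmb4 had 170.3 and 299 FPKM, and Psmb3 had 122 and 212 FPKM. Their log2 ratios lay between 0.60 for Psmb1 and 0.81 for Psmb4.

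The 3 catalytic subunits of the standard core were higher by less than the immunoproteasome genes that replace them. Psmb6, which carries the caspase-like activity, had 209.8 FPKM in WT cells and 364 FPKM in STAP-1 KO cells, a log2 ratio of 0.80. Psmb7, with the trypsin-like activity, had 110.1 and 170.2 FPKM, a log2 ratio of 0.63. Psmb5, with the chymotrypsin-like activity that proteasome inhibitors mainly target, had 107 and 202 FPKM, a log2 ratio of 0.91. None of the 3 reached 2-fold. The counting interval of the ratio ran from 1.42 to 1.69 for Psmb7 and from 1.71 to 2.08 for Psmb5. These intervals cover neither shared sequence nor the spread between preparations. In GRCm38 Psmb5 lies on chromosome 14 from 54614119 to 54618022, Psmb6 on chromosome 11 from 70525367 to 70527858 and Psmb7 on chromosome 2 from 38588036 to 38644087. Psmb5 shares 74.0% of its words of 31 bases with other transcripts, mostly those of a processed pseudogene, and Psmb7 shares 33.5%, mostly with the opposite-strand gene Nek6 that overlaps its exons, so that their levels are less certain than that of Psmb6 (15.4%).

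The immunoproteasome genes had higher ratios between the libraries than their constitutive counterparts. Psmb8 had 229 FPKM in WT cells and 523 FPKM in STAP-1 KO cells, Psmb9 had 71.2 and 195 FPKM, and Psmb10 had 55.1 and 123 FPKM. All 3 were past the 2-fold cut-off, with log2 ratios of 1.19, 1.45 and 1.15. None of the 3 was past it after the correction for transcript length, with 0.75, 0.95 and 0.65. The lowest of the 3 lay above the highest standard catalytic gene, Psmb5, on either scale. As deposited the values were 1.15 and 0.91, and after the correction 0.65 and 0.35. Their counting intervals ran from 2.18 to 2.39 for the ratio of Psmb8, from 2.51 to 3.004 for Psmb9 and from 2.00 to 2.48 for Psmb10. Psmb8 (from 34197721 to 34201454) and Psmb9 (from 34181987 to 34187764) lie close together in the MHC region of chromosome 17, and Psmb10 lies on chromosome 8 from 105935735 to 105938444. The counting is not stated to use strand. Psmb9 shares 13.8% of its words with the opposite-strand gene Tap1 and Psmb8 shares 8.14% with an antisense RNA, while Psmb10 shares none.

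Set against its counterpart in the same library, each immunoproteasome gene took a larger part in STAP-1 KO cells. Psmb9 stood at 0.339 of the level of Psmb6 in WT cells and at 0.536 in STAP-1 KO cells, so that its share of the pair went from 25.3% to 34.9%. The share of Psmb10 in the sum of Psmb10 and Psmb7 was 33.4% in WT cells and 41.9% in STAP-1 KO cells. Psmb8 was already the more abundant partner as listed, with 68.1% of the sum of Psmb8 and Psmb5 in WT cells and 72.1% in STAP-1 KO cells. The shares of Psmb10 and Psmb8 are less certain, given the sequence that Psmb7 and Psmb5 share with other transcripts. The ratio within the pair was 1.58 times as high in STAP-1 KO cells for Psmb9, 1.44 times for Psmb10 and 1.21 times for Psmb8. A common scaling of a library cancels in such a ratio. After a correction for transcript length, which is described below, the 3 differences were 0.66, 0.58 and 0.40 on the log2 scale, against 0.66, 0.53 and 0.28 as deposited.

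**Figure D2:**
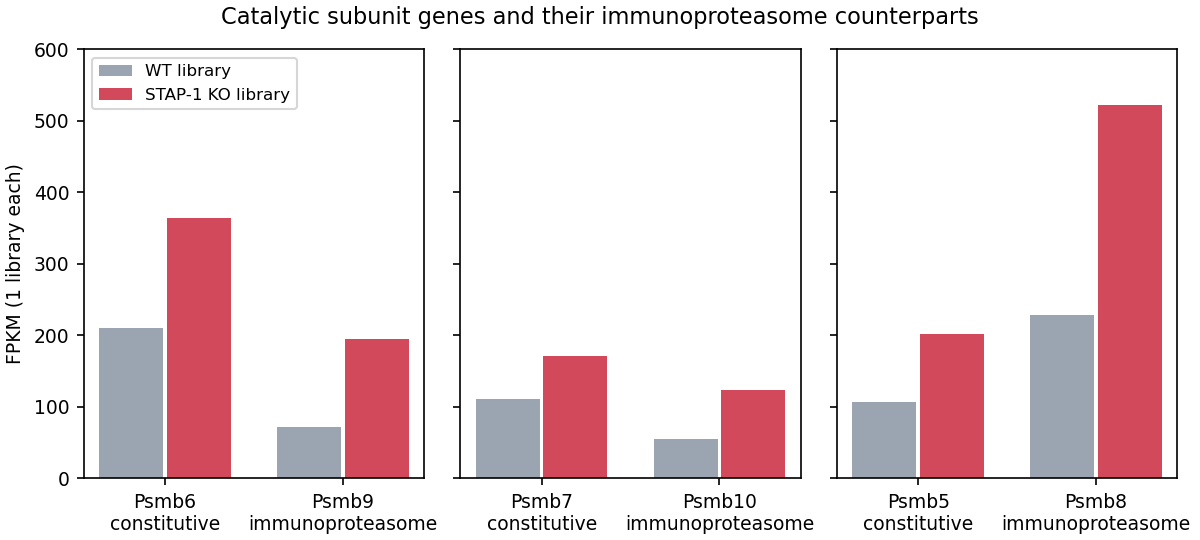
FPKM (y axis) of the 3 standard catalytic genes and of the immunoproteasome genes that replace them, in the WT library (grey bars) and the STAP-1 KO library (red bars), with 1 library each and therefore no error bars. Psmb8 exceeds Psmb5 in both libraries, from 229 against 107 FPKM to 523 against 202 FPKM, whereas Psmb9 and Psmb10 stay below Psmb6 and Psmb7.

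Psmb11, which replaces the same subunit as Psmb8 in the thymus, was listed at 0 FPKM in both libraries.

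The 4 core assembly chaperones with Psmg symbols had a median log2 ratio of 1.19, as had the immunoproteasome genes. Pomp, a core chaperone outside the symbol rule, had 0.58, and 0.80 after the length correction. Psmg1 and Psmg2 form one heterodimer and Psmg3 and Psmg4 another, and both assist the alpha ring while it is built. Psmg1 had 55.3 FPKM in WT cells and 129.7 FPKM in STAP-1 KO cells, Psmg2 had 82.4 and 182 FPKM, Psmg3 had 52.0 and 111 FPKM, and Psmg4 had 40.0 and 97.7 FPKM. All 4 passed the cut-off of 2-fold, with log2 ratios from 1.09 for Psmg3 to 1.29 for Psmg4, above each of the 31 constitutive subunits as deposited. After the length correction none of the 4 was past it. The counting interval of the ratio fell below 2 for Psmg3 (from 1.85 to 2.46) and Psmg4 (from 1.96 to 3.07) and stayed above it for Psmg1 (from 2.08 to 2.65) and Psmg2 (from 2.03 to 2.42).

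The chaperones that build the base had lower ratios on the scale as deposited. Psmd10, also known as gankyrin, had 60.5 FPKM in WT cells and 68.4 FPKM in STAP-1 KO cells, Psmd9 had 19.98 and 28.5 FPKM, and Psmd5 had 121 and 165 FPKM. Their log2 ratios of 0.18, 0.51 and 0.44 all lay below the lowest of the 4 core chaperones. This order does not hold after the correction for transcript length, under which Psmd5 had 0.92 and the core chaperones ran from 0.58 to 0.77.

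In the base, the 6 ATPases that form the unfolding ring were higher by log2 ratios from 0.46 to 0.80. Psmc3 had 174 FPKM in WT cells and 294 FPKM in STAP-1 KO cells, Psmc5 had 164 and 286 FPKM, Psmc4 had 137 and 237 FPKM, and Psmc1 had 133 and 225 FPKM. These 4 had log2 ratios from 0.75 to 0.80. Psmc2 with 143 and 205 FPKM and Psmc6 with 152 and 209.7 FPKM had lower ratios, at 0.52 and 0.46. The other base subunits were higher by less. Psmd1, the large scaffold subunit, had 139 and 178 FPKM, its relative Psmd2 had 128 and 156 FPKM, and the ubiquitin receptor Psmd4 had 156 and 203 FPKM. Their log2 ratios of 0.36, 0.28 and 0.38 lay below those of all 6 ATPases.

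The log2 ratios of lid genes spread from those of the base scaffold to those of the alpha ring. Psmd7, the partner of the deubiquitinating enzyme of the lid, had 166 FPKM in WT cells and 319 FPKM in STAP-1 KO cells, a log2 ratio of 0.94. That enzyme, Psmd14, had 185 and 310.2 FPKM, a log2 ratio of 0.74. Psmd6 had 169 and 305 FPKM, Psmd13 had 119 and 191 FPKM, and Psmd12 had 132 and 207 FPKM. With log2 ratios from 0.64 to 0.85 these 3 scaffold subunits lay near the ATPases. Psmd3 had 122 and 179 FPKM, Psmd11 had 54.1 and 71.2 FPKM, and Psmd8 had 178 and 234 FPKM. Their log2 ratios were 0.55, 0.39 and 0.39, and Psmd11 and Psmd8 were the lowest of the 8 lid genes.

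The activators, which cap the core in place of the regulatory particle, did not move together. Psme1 had 212 FPKM in WT cells and 340.2 FPKM in STAP-1 KO cells, a log2 ratio of 0.68. Its partner Psme2, with which it forms the interferon-inducible activator, had 43.5 and 48.4 FPKM, a log2 ratio of 0.15 with a counting interval of the ratio from 0.945 to 1.31. Psme2 thus stood at 20.5% of Psme1 in WT cells and at 14.2% in STAP-1 KO cells. This level is uncertain, since 66.2% of its words of 31 bases occur in the near-identical gene Psme2b, which is not among the symbols listed. Psme3, the nuclear activator, had 171 and 211 FPKM, a log2 ratio of 0.30. The inhibitor Psmf1 had 22.6 and 24.4 FPKM, and its counting interval from 0.973 to 1.198 includes equal levels. After the length correction the log2 ratios were 0.12 for Psme1, -0.41 for Psme2, 0.17 for Psme3 and 0.34 for Psmf1, so that Psme1 was no longer the highest.

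Psme4 was the exception among the 48 genes. It encodes a large activator of nuclear proteasomes known for the breakdown of acetylated histones in spermatogenesis and DNA repair. It had 16.5 FPKM in WT cells and 5.19 FPKM in STAP-1 KO cells, a log2 ratio of -1.65 that rests on about 776 and 342 reads (counting interval of the ratio from 0.276 to 0.358). The log2 ratio was -0.68 after the length correction, within 2-fold. Psme4 lies on chromosome 11 from 30771726 to 30880361 and shares no word of 31 bases with other transcripts. With 6491 bases its transcript is also the longest of the 48.

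Psmc3ip, which acts in meiotic recombination, had 15.4 FPKM in WT cells and 43.9 FPKM in STAP-1 KO cells, a log2 ratio of 1.51, and just under 2-fold after the length correction. Its exons overlap those of the opposite-strand gene Mlx, and 28.2% of its words are shared with that gene. Without this gene the median log2 ratio over the proteasome genes was 0.76.

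**Figure D3:**
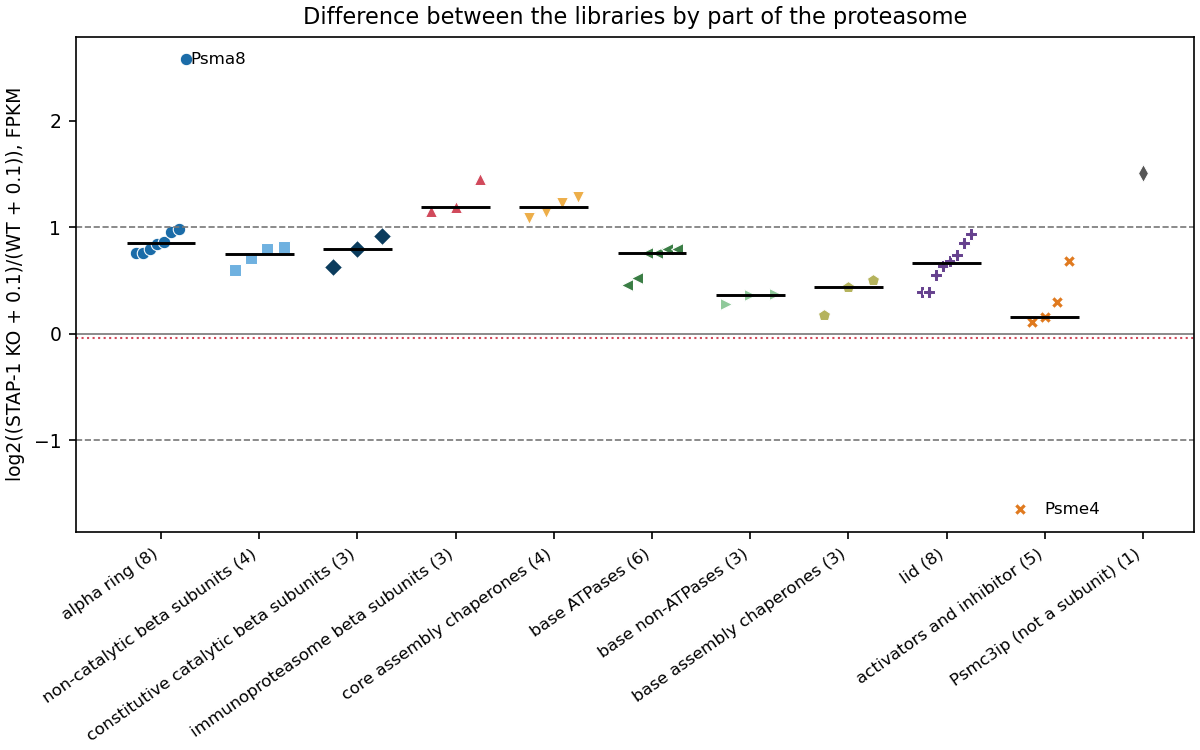
Log2 ratio of each gene between the STAP-1 KO and WT libraries (y axis, log2 of FPKM with a pseudocount of 0.1) by part of the proteasome (x axis, number of genes in brackets). Black bars are group medians, dashed lines mark 2-fold differences and the dotted red line is the median of all genes (-0.04). The immunoproteasome and core chaperone groups sit above the upper dashed line, the constitutive subunits sit below it, and Psma8 (2.58) and Psme4 (-1.65) stand apart from their groups.

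The difference between the libraries varied with transcript length, and proteasome transcripts are short. Their median length was 1490.5 bases, against 2951 bases over all genes whose mean reached 1 FPKM, and 43 of the 48 fell among the 10 of 20 length bins with the shorter genes, up to 2950 bases. Across the 48 genes Spearman's rho between length and log2 ratio was -0.57, and across 10865 genes it was -0.40. These are descriptions across genes of the same 2 libraries. Among all genes of 885 to 1189 bases, where 9 proteasome genes fell, the median log2 ratio was 0.56 and that of the 9 genes was 0.81. In the bin from 1191 to 1434 bases it was 0.51 against 0.99 for 9 genes, and in the bin from 6253 to 7642 bases, which holds Psme4, it was -0.97.

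When the median log2 ratio of genes of like length was subtracted (20 bins), the median over the 48 genes went from 0.76 to 0.32, and 45 of the 48 were above 0, against 49.8% of the 12360 genes above the floor that have a length. The 31 constitutive subunits had a median of 0.29 with an interquartile range of 0.10, while the range was 1.07 over all genes whose mean reached 10 FPKM. On this scale 1 gene instead of 9 was at least 2-fold higher, namely Psma8 with 2.28, and none was at least 2-fold lower, against 10.8% and 17.8% of those genes. Psmb9 had 0.95, Psmb8 had 0.75 and Psmb10 had 0.65, and the core chaperones ran from 0.58 to 0.77. The immunoproteasome genes and core chaperones lay above the standard catalytic genes, which ran from 0.07 for Psmb7 to 0.35 for Psmb5. They no longer lay above all 31 constitutive subunits, since Psma3 had 0.78 and Psma2 had 0.70. The base ATPases had a median of 0.30, the other base subunits 0.25 and the lid 0.31, so that the gap between ATPases and base scaffold was largely absent. Psme4 had -0.68. Psme2 (-0.41) and Psmd10 (-0.33) changed sign. Psmd5, whose transcript of 4397 bases is the second longest, had 0.92, the highest of the regulatory particle and its chaperones.

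**Figure D4:**
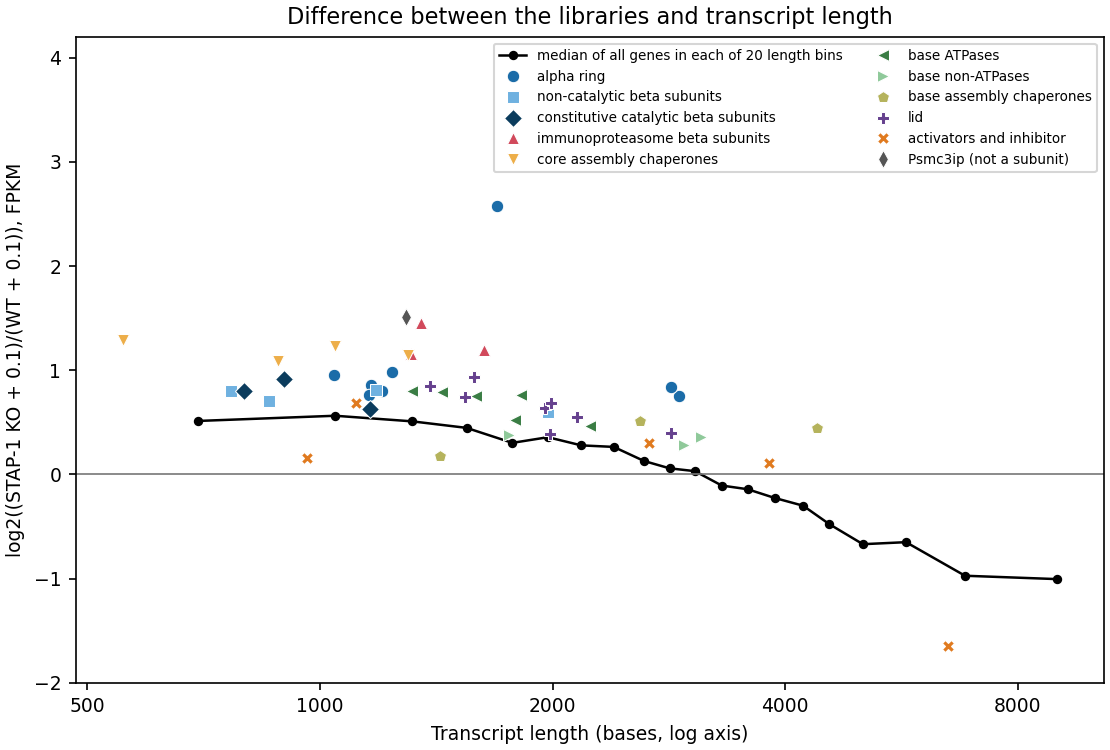
Log2 ratio of each proteasome gene between the STAP-1 KO and WT libraries (y axis, log2 of FPKM with a pseudocount of 0.1) against the length of its transcript (x axis, bases, log axis). The black line joins the medians of all genes in 20 length bins, which go from 0.51 for the shortest to -1.005 for the longest. Of the 48 proteasome genes 45 lie above the line, with Psme4, Psme2 and Psmd10 below it.

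The 250 bases before their RefSeq starts (GRCm38.p6) were searched on both strands for 4 short motifs. Such windows were used for 41 of the 49 genes, and for Psma6, Psmc2 and Psme2 there were more than 1. The motif CCGGAAG, which is bound by ETS factors, occurred in 13 of the 41 genes (31.7%), against 6.91% of all 32851 windows and 18.9% of the 4913 other genes averaging at least 10 FPKM. The motif TGACNNNGC of the antioxidant response element, through which Nfe2l1 induces proteasome genes, occurred in 5 of the 41 (12.2%), in Psmb5, Psmb6, Psmc6, Psmd9 and Psmd12, against 10.2% of all windows and 14.9% of the other genes. CCAAT occurred in 15 of the 41 (36.6%), against 33.8% and 41.7%. The interferon-stimulated response element, searched as GAAA, any 2 bases and GAAA again, occurred in 3 of the 41 (7.32%), in Psmb3, Psmd4 and Psmd9, against 2.98% and 3.5%. It was found in none of the windows of Psmb8, Psmb9 and Psmb10. None of the 4 motifs contains another, and a match is a description of the letters and not a binding site.

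The windows of 2 standard catalytic genes with the antioxidant motif are shown, and those of a core chaperone and of Psme4, which share the ETS motif although the first was higher and the second lower in STAP-1 KO cells. Each runs 5′ to 3′ on the strand of the gene, from 250 bases before the start to the end of the last match, which is in capitals. The Psmb5 window is chr14:54618034-54618245 on the minus strand, that of Psmb6 is chr11:70525107-70525356 on the plus strand, that of Psmg1 is chr16:95991023-95991210 on the minus strand and that of Psme4 is chr11:30771525-30771728 on the plus strand.
Psmb5: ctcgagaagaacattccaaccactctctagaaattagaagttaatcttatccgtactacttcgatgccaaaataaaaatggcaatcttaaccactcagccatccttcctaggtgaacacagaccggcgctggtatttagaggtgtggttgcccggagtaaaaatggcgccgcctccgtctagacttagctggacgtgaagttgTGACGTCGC
Psmb6: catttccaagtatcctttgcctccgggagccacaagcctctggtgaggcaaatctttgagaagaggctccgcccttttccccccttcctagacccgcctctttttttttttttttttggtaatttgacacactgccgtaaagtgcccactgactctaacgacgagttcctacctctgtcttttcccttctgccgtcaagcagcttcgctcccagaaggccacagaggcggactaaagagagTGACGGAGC
Psmg1: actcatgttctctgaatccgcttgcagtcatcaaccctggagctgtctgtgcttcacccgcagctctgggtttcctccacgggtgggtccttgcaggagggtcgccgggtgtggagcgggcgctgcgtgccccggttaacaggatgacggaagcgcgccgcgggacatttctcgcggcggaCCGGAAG
Psme4: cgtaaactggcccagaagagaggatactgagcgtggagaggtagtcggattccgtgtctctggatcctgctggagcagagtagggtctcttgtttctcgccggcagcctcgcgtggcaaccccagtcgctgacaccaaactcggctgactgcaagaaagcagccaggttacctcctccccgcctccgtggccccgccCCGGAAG

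Of 28 genes that work with the proteasome, 27 were listed. Of these, 2 were at least 2-fold higher and 2 at least 2-fold lower, against 12.3% and 22.9% of all genes above the floor. Their median log2 ratio was -0.0025, and 0.16 after the length correction. The core chaperone Pomp had 249.8 FPKM in WT cells and 373 FPKM in STAP-1 KO cells, a log2 ratio of 0.58. The ubiquitin receptor Adrm1 had 6.34 and 12.6 FPKM, just under 2-fold, and the deubiquitinating enzyme Uchl5 that docks on it had 97.7 and 211 FPKM, just over 2-fold. Of the 8 genes of integral and associated proteins 5 were higher, with a median log2 ratio of 0.45 (0.67 after the length correction). Besides Adrm1 and Uchl5 these were the deubiquitinating enzyme Usp14 with 74.0 and 112 FPKM, Txnl1 with 85.4 and 132 FPKM and Sem1, listed as Shfm1, with 434 and 538 FPKM. The 3 that were lower were Zfand5 with 25.6 and 23.0 FPKM, Ecpas and Ube3c. Ecpas, an adaptor of the proteasome that is listed as AI314180, had 31.8 and 11.4 FPKM and the ubiquitin ligase Ube3c had 30.0 and 15.0 FPKM. The length correction changed several of these values. Uchl5 (0.81) and Ecpas (-0.50) were then within 2-fold and Usp14 (1.077) was past it, while Zfand5 (0.82) and Sem1 (-0.14) changed sign. Fbxo7, a partner of the inhibitor Psmf1 with 29.2 and 52.7 FPKM, was then also more than 2-fold higher.

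The transcription factor Nfe2l1, which restores proteasome genes when proteasomes fail, had 23.6 FPKM in WT cells and 14.2 FPKM in STAP-1 KO cells. Ddi2, which cleaves it, had 16.3 and 9.90 FPKM, Ngly1, which deglycosylates it, had 77.7 and 48.4 FPKM, and its relative Nfe2l2 had 77.4 and 62.4 FPKM. All 4 were lower in STAP-1 KO cells by less than 2-fold, while the subunit genes were higher. After the length correction Ddi2 was above 0, at 0.29, and the other 3 were between -0.74 and -0.25.

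Of the genes that encode ubiquitin, the polyubiquitin gene Ubb had 886 FPKM in WT cells and 655 FPKM in STAP-1 KO cells, and Rps27a, which encodes ubiquitin fused to a ribosomal protein, had 9.22 and 22.3 FPKM. Ubiquitin repeats and processed copies make the assignment of reads to both genes uncertain. Of the enzymes that activate ubiquitin, Uba1 had 148 and 129 FPKM and Uba6 had 10.7 and 8.75 FPKM. After the length correction both were above 0, at 0.10 for Uba1 and 0.68 for Uba6, and Rps27a was within 2-fold, at 0.75. The shuttle and unfolding genes Vcp, Rad23b, Ubqln1, Ubqln2 and Ubqln4 ran from -0.55 for Ubqln4 to 0.07 for Vcp on the log2 scale.

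The immunoproteasome genes were set beside 13 genes of antigen presentation and interferon response, of which 1 was at least 2-fold higher and 1 at least 2-fold lower, against 12.3% and 22.9% of all genes above the floor. Their median log2 ratio was 0.08, and 0.43 after the length correction. Tap1, the peptide transporter gene next to Psmb9, had 26.3 FPKM in WT cells and 47.6 FPKM in STAP-1 KO cells, a log2 ratio of 0.85. Tap2 had 71.1 and 75.3 FPKM and the loading factor Tapbp had 171 and 111 FPKM, while its relative Tapbpl had 11.4 and 21.5 FPKM and the peptide-trimming enzyme Erap1 had 29.4 and 27.6 FPKM. None of these 5 reached 2-fold. After the length correction their log2 ratios were 0.82 for Tap1, 0.64 for Tapbpl, 0.56 for Erap1, 0.19 for Tap2 and -0.68 for Tapbp. The class I genes H2-K1 (473 and 871 FPKM) and H2-D1 (1505 and 1227 FPKM) went in opposite directions, although reads of such related genes may be exchanged, and B2m, their light chain, had 2300 and 3537 FPKM. Of the regulators, Irf1 had 29.4 and 59.6 FPKM, Irf8 had 45.4 and 19.6 FPKM, and the class I transactivator Nlrc5 had 2.00 and 1.38 FPKM. Irf1 was the gene past the cut-off upwards and Irf8 the one downwards. After the length correction Irf1 (0.74) was within 2-fold, Irf8 (-1.26) was not, and Nlrc5 (0.46) changed sign.

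Complexes of like build were compared after the values had been seen, to show where the proteasome differs from them. The COP9 signalosome and eIF3 share the architecture of the lid. Their median log2 ratios were 0.67 over 9 genes and 0.64 over 13 genes, close to the 0.66 of the lid. The chaperonin TRiC, a folding barrel with ATPase subunits, had a higher median of 1.03 across its 8 genes, and 5 of these were at least 2-fold higher, where none of the 31 constitutive subunits and 12.3% of all genes above the floor were. After the length correction none of the 8 TRiC genes was at least 2-fold higher, with Cct6a highest at 0.85, against 10.8% of all genes. The corrected medians were 0.47 for the COP9 signalosome, 0.29 for eIF3 and 0.74 for TRiC, against 0.31 for the lid and 0.29 for the 31 subunits. The narrow spread of the subunits was found in some of these complexes too. The interquartile range of the log2 ratio was 0.26 for the COP9 signalosome, 0.47 for eIF3 and 0.10 for TRiC, against 0.23 for the 31 subunits, and after the length correction it was 0.15, 0.29 and 0.12, against 0.10. Of the 30 genes of these complexes 29 were higher in STAP-1 KO cells, against 47.9% of all genes above the floor, the exception being Eif3a with a log2 ratio of -0.10. The exceptions depended on the scale, since after the length correction Eif3a had 0.56 and the genes below 0 were Eif3h (-0.37) and Eif3f (-0.02). No test of the differences between complexes is possible from 2 libraries.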

How the data were processed

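The authors made cDNA of WT and STAP-1 KO LSCs with a SMART-Seq kit, mapped single reads to mm10 with TopHat2 2.0.13 and Bowtie2 2.2.3, and deposited FPKM values from Cuffnorm of Cufflinks 2.2.1 (versions per the submitters' processing notes). The gene annotation and the scaling between libraries are not given in the sources used here.

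Ratios were taken in Python 3.11.15, with numpy 2.4.6 for arrays, pandas 2.3.3 for tables and scipy 1.17.1 for intervals. A gene counted as higher or lower past a 2-fold ratio, without pseudocount, where neither library was under 0.1 FPKM. Medians used log2 ratios with a pseudocount of 0.1 FPKM, which understate differences of low genes, over genes whose mean reached 1 FPKM. No test was made, since each genotype has 1 library. Transcript lengths are those of the longest coding transcript in GENCODE M21 (GRCm38), in which 1901 symbols were found under an older name and 472 of 23284 were not found. Depths were set where the largest number of low values came out within 0.01 of a whole read, which held for 44.8% of 366 WT values and 50.5% of 372 STAP-1 KO values, against 2% by chance, so that estimated reads are approximate. The steps were tested on simulated data.

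The genes and lists were chosen with earlier results of these data known. All genes that the symbol rule matched are accounted for. Of the partner and antigen presentation lists, the rule named up to 5 genes each with the largest absolute log2 ratio and Nfe2l1, Pomp, Adrm1, Tap1 and Tap2, and the others in the text were picked after their values were seen. Some genes of these lists are not reported here. The COP9 signalosome, eIF3 and TRiC and the exclusion of genes with shared sequence were also added then. Alternatives changed the pseudocount, floor, cut-off, scaling, genes included and length correction.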

Additional observations from a re-analysis of the deposited data

How the results depend on the processing

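With 1 library per genotype no replicate could be left out, and no paired analysis was possible because each group has 1 library. Medians that moved by at most 0.2 on the log2 scale were counted as the same. The medians of the 48 genes and of 10 groups were the same in this sense under both other pseudocounts, the 3 other scalings, a minimum mean of 10 FPKM or none, without Psmc3ip and without the 13 genes that share 20% or more of their words of 31 bases, the last chosen after seeing the data. Setting both libraries to the same sum of FPKM raised the median of all genes by 0.10 and carried 4 further genes past 2-fold, Psma5 (1.09), Psma6 (1.06), Psmd7 (1.04) and Psmb5 (1.02).

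The correction for transcript length moved most medians, to 0.32 for all 48 genes, 0.44 for the alpha ring, 0.25 and 0.28 for the non-catalytic and catalytic beta subunits, 0.75 for the immunoproteasome genes, 0.30 for the ATPases, 0.31 for the lid and 0.65 for the core chaperones. Under it Psmd10 (-0.33) and Psme2 (-0.41) changed sign. The numbers of proteasome genes at least 2-fold higher and lower, 9 and 1, became 1 and 0 under it and under a 4-fold cut-off, and the first became 33 at a 1.5-fold cut-off. The 2 partner genes that were higher and the 2 that were lower became 7 and 6 at 1.5-fold and 0 and 0 at 4-fold, and 1 was lower after the length correction. The number of higher partner genes stayed at 2 under that correction, but these were Fbxo7 and Usp14 in place of Uchl5 and Rps27a. For antigen presentation genes, 1 and 1 became 5 and 2 at 1.5-fold and 0 and 0 at 4-fold, with 2 higher at the same sum of FPKM and 0 higher after the length correction. The length correction takes 1 transcript per gene, and the transcripts that these cells use were not determined, so neither scale is preferred here.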
